A study of Homo sapiens with 4 samples.

Results

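The genes described here encode the transcription factor NRF2 and its partners, the enzymes that remove peroxides and superoxide, and the ferritin chains that store iron. They were taken by name from a list of 33. Of these, 32 had a row in a table of 20665 genes, and 30 of the 32 had enough reads to be tested. SRXN1 was not analysed here. All libraries came from NALM6, an established human cell line grown from a B cell precursor leukemia. The vehicle group (2 libraries) received DMSO for 45 min. The AICAR group (2 libraries) was deprived of glucose for 24 h before 45 min with 15 mM AICAR, a nucleoside that cells turn into an AMP analogue and that activates the kinase AMPK. The labels list no glucose-free period for the vehicle cells and do not say what medium they were in before DMSO. If they had glucose throughout, glucose deprivation and AICAR cannot be told apart in any difference below, and if they had none, the groups differ by AICAR alone. The labels do not say whether replicates were separate cultures, so p-values measure the spread between these libraries, which may be technical.

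NRF2, the product of NFE2L2, binds antioxidant response elements as a dimer with a small MAF protein. In unstressed cells KEAP1 hands NRF2 to a ubiquitin ligase for degradation, and oxidants or electrophiles interrupt this. BACH1 is a repressor that competes for the same elements and is released by heme. Known targets include genes of glutathione and thioredoxin metabolism, NQO1, HMOX1 and both ferritin chains. Much of NRF2 control acts on the protein, which RNA counts do not measure.

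Library depth was 32318376 to 36769116 expected counts. All 12 B precursor markers on a fixed list were tested, with a summed level of 3830 to 3880 CPM in the vehicle group and 4040 to 4130 CPM with AICAR. Of the 12, 6 were called higher and 2 lower, against 19.4% and 19.7% of all genes tested. Among them were VPREB3 at log2 0.28, CD79A at 0.27, EBF1 at -0.20 and RAG1 at -0.38. Line markers thus moved by amounts like those of the rising members. CPM is the usual depth-scaled count, here with TMM-scaled library sizes. Of the markers of other blood cells, 8 had a row. T cell markers (2 rows) summed to at most 0.47 CPM, the 1 erythroid marker to at most 0.12 CPM and 5 myeloid markers to 2.12 to 2.58 CPM with vehicle and 3.26 to 3.35 CPM with AICAR. Only 3 of the 8 had enough reads to be tested and none of the 3 was called. The erythroid marker had no count with vehicle, and the part of these myeloid reads in any result was not tested. In bulk RNA, fewer cells that express a gene and less RNA per cell cannot be told apart, and every value is relative to the other transcripts of its library.

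The antioxidant response element has the core TGACNNNGC. It was sought on both strands from 250 bases before to 50 bases after each annotated start, in RefSeq windows of GRCh38.p14. Symbols matched for 24 members, with 40 windows. The core lay in 5 of the 40 windows, against 13.3% of all 35116 windows, and in 4 genes. These were TXNRD1, KEAP1, GCLM and MAFF, shown because they are the pathway genes here whose windows carry the core (in capitals, on the strand that carries it).
TXNRD1: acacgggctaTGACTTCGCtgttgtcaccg
TXNRD1: ctgtgggaacTGACGGAGCcgaaggacgcc
TXNRD1: agagtcagaaTGACAAAGCagaaatccact
KEAP1: caggtcaccaTGACTAAGCagagccgggcg
KEAP1: acttttattgTGACACGGCgggcgcccggc
GCLM: tggaagacaaTGACTAAGCagaaatcgtag
MAFF: cgcccccgtaTGACCCCGCcccctggaagc

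The TXNRD1 windows are chr12:104215670-104215699 (plus strand), chr12:104215760-104215789 (minus strand) and chr12:104286919-104286948 (minus strand), and the gene lies on the plus strand. Those of KEAP1, a minus-strand gene, are chr19:10502784-10502813 (plus strand) and chr19:10502806-10502835 (minus strand). The GCLM window is chr1:93909446-93909475 (plus strand), on the strand opposite to the gene. The MAFF window is chr22:38201861-38201890 (minus strand), also opposite to its gene. KEAP1 and GCLM share the letters TGACTAAGC at almost the same place, with the far end 31 and 34 bases upstream of the start. A match describes letters only, and elements outside these windows were not sought.

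Ferritin transcripts carry an iron response element near their start, a hairpin whose loop is bound by iron regulatory proteins and which controls translation. The loop letters CAGTG, preceded at 5 bases by the bulged C, were sought on the gene's own strand of the same windows. They occur in 10.2% of all windows and in 11 of the 40 member windows, in FTL, GPX1, HMOX2, PRDX2, PRDX5, TXN and TXNRD2. All matches in HMOX2, PRDX2, PRDX5 and TXN, and some in TXNRD2, lie upstream of the annotated start, outside a transcript from that start. A match alone says little. Only 24 of the 33 members had a window, and each window ends 50 bases after a start. Absence from this list, as for FTH1, therefore does not mean that a transcript lacks the element. In FTL they run from base 33 to base 43 of the transcript, at chr19:48965329-48965358 (plus strand, GRCh38.p14), shown because FTL is the ferritin chain with the most reads here.
FTL: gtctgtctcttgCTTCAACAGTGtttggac

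Levels can be compared between genes only per transcript length, as the deposited FPKM (scaled by transcript length and library depth). PRDX1, a cytosolic peroxiredoxin that reduces hydrogen peroxide, was the highest member, with 1677 and 1660 FPKM in the vehicle libraries and 1847 and 1830 FPKM with AICAR. FTL, the ferritin light chain, followed with 907 and 916 FPKM with vehicle and 1103 and 1085 FPKM with AICAR. Together they made up 54.7% to 56.0% of the summed FPKM of all members in each library. GPX4 and SOD1 came next, at means of 282 and 259 FPKM with vehicle. FTL exceeded FTH1, the heavy chain with the ferroxidase site, by 5.88 to 6.52 times in FPKM in every library. At the low end stood the glutamate-cysteine ligase genes, TXNRD2, MAFG and NQO1, all between 2.86 and 10.2 FPKM in each library.

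PRDX2, which like PRDX1 encodes a cytosolic peroxiredoxin, was at the detection limit. It had 1 and 2 counts in the vehicle libraries and 1 and 0 counts with AICAR, while the other 5 peroxiredoxin genes had at least 1859 counts in every library. With so few counts no fold change is given, and a library without a count allows up to 3. RNASEH2A, which lies close to PRDX2 on the same chromosome in RefSeq, had 82.4 to 92.3 FPKM. JUNB, another neighbour, had 15.1 and 14.3 FPKM with vehicle and 2.93 and 2.68 FPKM with AICAR. Why PRDX2 had so few counts was not tested. HMOX1, the inducible heme oxygenase, had 9 and 5 counts with vehicle and 2 and 3 counts with AICAR and was also not tested. HMOX2, the constitutive form, was read well, at 1471 to 1712 counts per library.

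**Figure D1:**
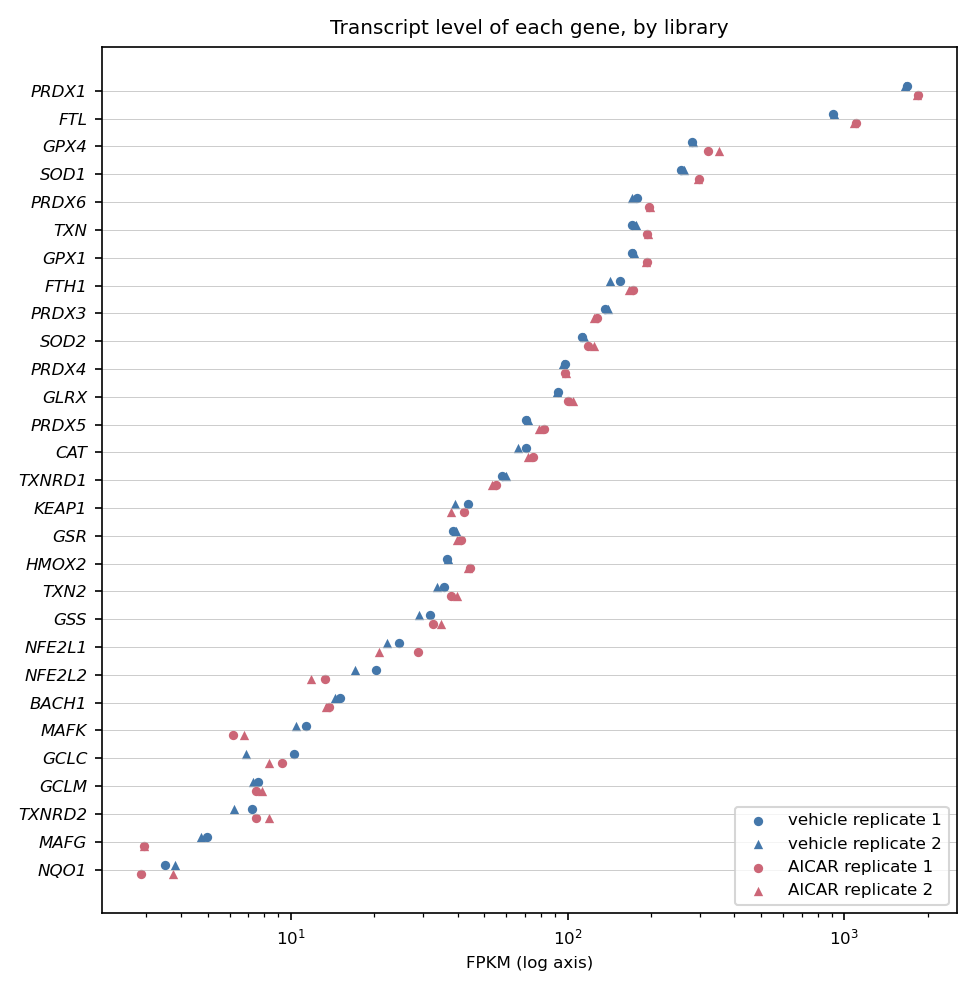
Deposited FPKM (log axis) of the 29 members with a vehicle mean of at least 1 FPKM, ordered by that mean. Each point is 1 library, circles and triangles are replicates 1 and 2, and colours are the groups; the scale runs from NQO1, with a vehicle mean of 3.66 FPKM, to PRDX1, with 1669 FPKM, and MAFF, HMOX1 and PRDX2 are left out.

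The comparison of AICAR with vehicle ran over 13626 genes with edgeR's quasi-likelihood test, and a gene is called at a Benjamini-Hochberg adjusted p under 0.05. Both ferritin genes and 13 genes of HMOX2, thioredoxin, glutathione, peroxiredoxin, peroxidase, dismutase and catalase functions rose by small amounts, 4 of 7 regulators fell, and 8 enzyme genes were not called. Of the 30 members tested, 15 were called higher, by 1.09-fold to 1.25-fold, against 19.4% of all genes tested. A further 4 were called lower, by 1.33-fold to 1.68-fold, against 19.7% of all genes, and 11 were not called. The median log2 fold change of the members was 0.12, beside -0.0022 for all genes tested. Both AICAR libraries lay above both vehicle libraries for 18 of the 30, against 34.3% of all genes, and below them for 8, against 34.9%. With libraries scaled by total counts alone, 10 members were called higher against 10.2% of all genes and 6 lower against 23.0%, and 69.3% of all calls were lower instead of 50.4%. In the test on log2(FPKM + 1), 8 members were called higher against 4.24% of all genes and 3 lower against 9.15%, and 68.3% of all calls were lower.

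**Figure D2:**
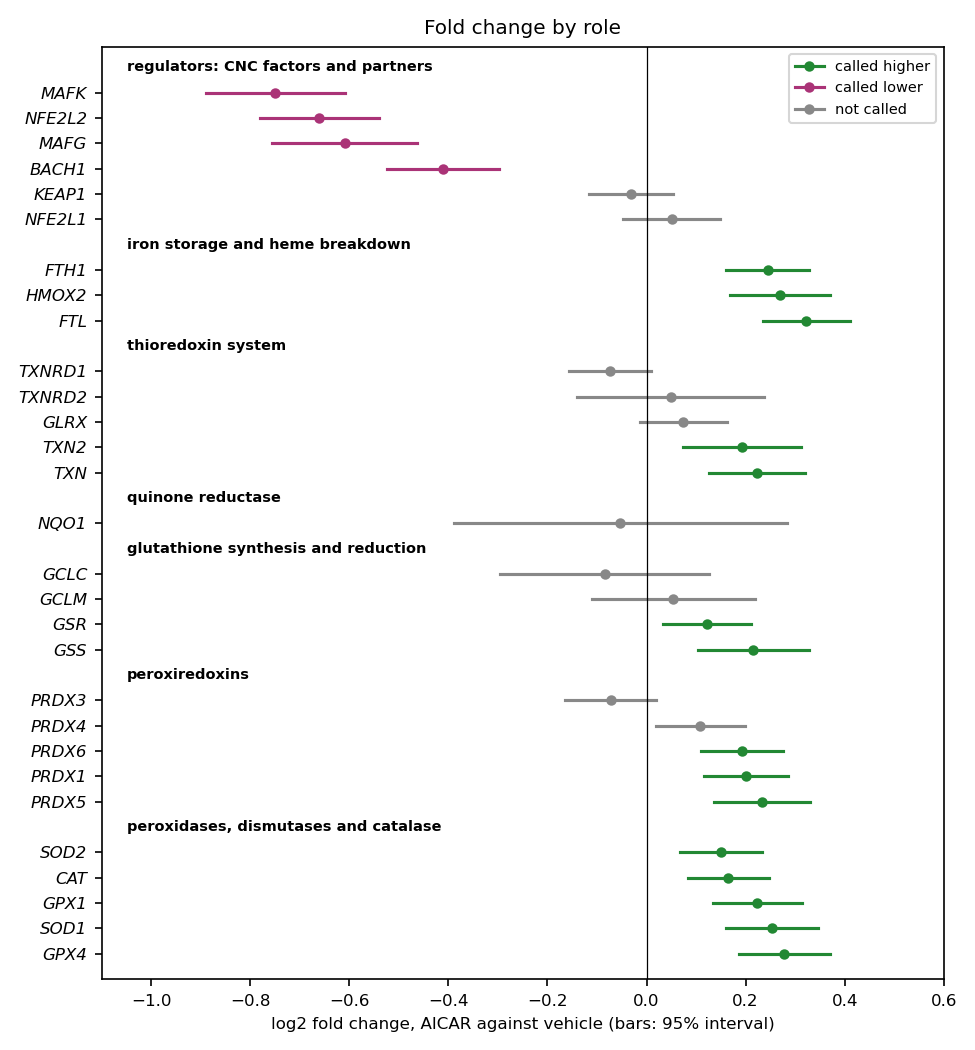
Log2 fold change of AICAR against vehicle (horizontal axis) for 29 tested members, grouped by role, with the 95% interval of the edgeR fit. NFE2L2, MAFG, MAFK and BACH1 lie below 0, the 15 members called higher lie between 0.12 and 0.32, and MAFF, at -1.66 with a wide interval, is not drawn.

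Among the 7 regulators, 4 fell and none rose, against 19.7% and 19.4% of all genes tested. NFE2L2 (ENSG00000116044) had 33.4 and 34.0 CPM with vehicle and 21.3 CPM in both AICAR libraries. The groups did not overlap and the gap was many times the spread within either. This was a 1.58-fold fall (log2 -0.66 ± 0.0548, SE; edgeR adjusted p = 4.72e-06).

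The small MAF genes encode the partners without which NRF2 does not bind DNA. MAFK (ENSG00000198517) had 33.0 and 30.2 CPM with vehicle and 19.0 and 18.6 CPM with AICAR, a 1.68-fold fall (log2 -0.75 ± 0.064, SE; edgeR adjusted p = 5.93e-06). MAFG (ENSG00000197063) had 22.4 and 22.2 CPM with vehicle and 14.2 and 15.0 CPM with AICAR, a 1.53-fold fall (log2 -0.61 ± 0.0667, SE; edgeR adjusted p = 3.87e-05). For both genes each AICAR library lay below each vehicle library. MAFF, the third small MAF gene, had only 11 and 14 counts with vehicle and 2 and 5 with AICAR. Its log2 fold change of -1.66 had an interval from -3.06 to -0.264 and did not pass the adjusted threshold (edgeR adjusted p = 0.0587). Over 15 other settings that kept MAFF it ranged from -2.40 to -1.19 and the adjusted p from 0.0453 to 0.356, with a call in limma-voom alone.

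BACH1 (ENSG00000156273) had 38.0 and 38.8 CPM with vehicle and 29.2 and 28.6 CPM with AICAR, and the groups did not overlap. By counts it fell 1.33-fold (log2 -0.41 ± 0.0513, SE; edgeR adjusted p = 1.02e-04). The deposited FPKM fell less, from 15.0 and 14.4 to 13.7 and 13.4. The ratio of count to FPKM gives the effective transcript length that the quantification assigned to a gene in each library. For BACH1 this was 2645 and 2689 bases with vehicle and 2101 and 2068 bases with AICAR, a log2 difference of -0.36. When the effective length of each library entered the test, the log2 fold change was -0.07 and BACH1 was no longer called, nor was it in a test on log2(FPKM + 1), which gave -0.11. Over 17 other settings the value ranged from -0.47 to -0.07 and the adjusted p from 4.54e-08 to 0.518. Whether transcript forms of BACH1 differed between the groups cannot be read from gene-level values.

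The log2 difference in effective length was smaller for the other falling regulators, at -0.06 for MAFK, 0.05 for MAFG and -0.15 for NFE2L2. NFE2L2 had 1713 and 2004 bases with vehicle and 1594 and 1753 with AICAR, so its groups overlapped. With the effective length of each library in the test, its log2 fold change was -0.52 in place of -0.66, still called (adjusted p over 17 settings 2.04e-15 to 0.0339). MAFK, MAFG and NFE2L2 were called lower under every one of 18 other settings. The summed level of NFE2L2, BACH1, MAFG and MAFK was 126.9 and 125.1 CPM with vehicle and 83.8 and 83.5 CPM with AICAR.

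**Figure D3:**
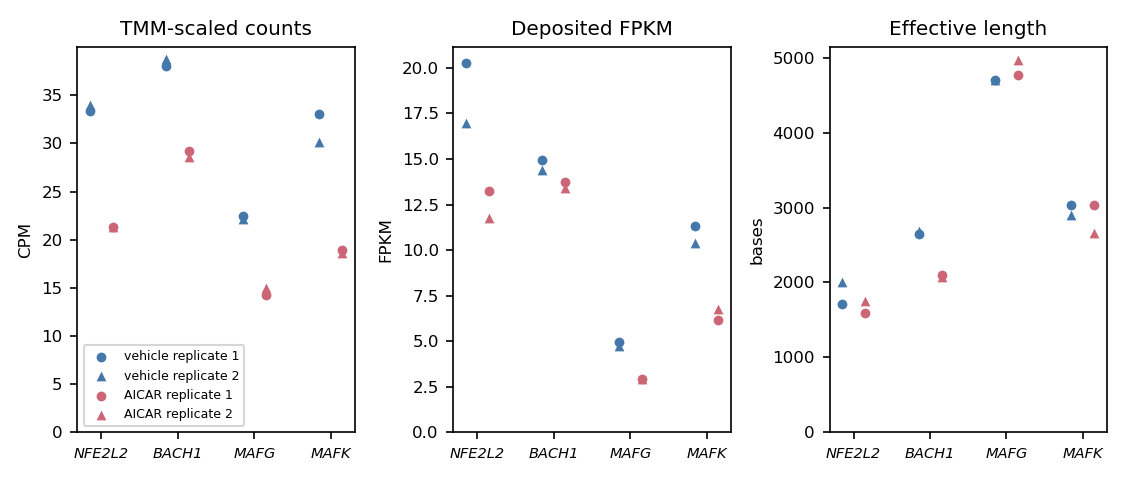
NFE2L2, BACH1, MAFG and MAFK in each library as TMM-scaled CPM (left), deposited FPKM (middle) and effective length in bases (right), all axes from 0. All 4 genes are lower with AICAR in CPM, while BACH1 is nearly level in FPKM and has a shorter effective length with AICAR.

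KEAP1, the adaptor that marks NRF2 for degradation, had 87.7 and 88.6 CPM with vehicle and 85.2 and 87.4 CPM with AICAR. Its log2 fold change was -0.03, with an interval from -0.116 to 0.0543 (edgeR adjusted p = 0.576). NFE2L1, an NRF2 relative that controls proteasome genes, had 74.0 and 69.6 CPM with vehicle and 75.4 and 73.3 CPM with AICAR, and its groups overlapped. Its log2 fold change was 0.05, from -0.0468 to 0.149 (edgeR adjusted p = 0.405). NFE2L1 was called higher, at 0.14, in 1 of 17 other settings, the removal of the length trend described below, and its adjusted p over those settings was 0.0227 to 0.954.

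All 3 tested genes of iron storage and heme breakdown rose, against 19.4% of all genes tested. FTL (ENSG00000087086) had 700.8 and 736 CPM with vehicle and 897.5 and 899 CPM with AICAR. The 2 AICAR libraries were nearly equal and above both vehicle libraries, a 1.25-fold rise (log2 0.32 ± 0.0398, SE; edgeR adjusted p = 9.46e-05). FTH1 (ENSG00000167996) had 112 and 108 CPM with vehicle and 131 and 130.0 CPM with AICAR, a 1.19-fold rise (log2 0.25 ± 0.0382, SE; edgeR adjusted p = 4.6e-04). HMOX2, which releases iron from heme, had 41.7 and 42.3 CPM with vehicle and 50.1 and 51.2 CPM with AICAR, a 1.21-fold rise (edgeR adjusted p = 7.92e-04). FTH1 lost its call in the test on FPKM (log2 0.19; adjusted p over 17 settings 3.38e-07 to 0.0709). Ferritin genes have processed copies that share their sequence. The 2 FTL copies with a row held 0.691% to 0.859% of the FTL count and the 7 FTH1 copies 0.19% to 0.456% of the FTH1 count, and adding them left both calls in place.

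Of the 5 tested thioredoxin and glutaredoxin genes, 2 rose and none fell, against 19.4% and 19.7% of all genes tested. So few genes do not set this subgroup apart. TXN, cytosolic thioredoxin, had 130 and 140.0 CPM with vehicle and 156 and 160 CPM with AICAR, a 1.17-fold rise without overlap (log2 0.22 ± 0.0439, SE; edgeR adjusted p = 0.00197). TXN2, its mitochondrial counterpart, had 38.3 and 40.3 CPM with vehicle and 43.3 and 46.5 CPM with AICAR, a 1.14-fold rise (edgeR adjusted p = 0.0145). The TXN2 call was lost without AICAR replicate 2 (log2 0.14) and held in 11 of 17 other settings (0.13 to 0.25; adjusted p 0.00226 to 0.145).

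The reductases that recharge the thioredoxins were not called. TXNRD1, the cytosolic selenoenzyme and an NRF2 target, had 140.3 and 144.6 CPM with vehicle and 135.8 and 135.0 CPM with AICAR. Both AICAR libraries were slightly lower, with a log2 fold change of -0.07 and an interval from -0.156 to 0.00922 (edgeR adjusted p = 0.149). TXNRD1 was called lower with total counts alone (-0.13) and when only genes averaging 10 CPM or more were tested (-0.11), and over 17 settings its adjusted p was 0.0169 to 0.648. TXNRD2, the mitochondrial form, had overlapping groups around 10 to 11 CPM and an interval from -0.141 to 0.238. GLRX, a glutaredoxin, had 84.8 and 87.5 CPM with vehicle and 92.1 and 89.3 CPM with AICAR (log2 0.07, from -0.0136 to 0.163; edgeR adjusted p = 0.17). With the effective length of each library in the test, GLRX was called higher at 0.20 (adjusted p over 17 settings 0.0286 to 0.851).

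NQO1, GCLC and GCLM, NRF2 targets often used as reporters of its activity, were not called. Of 20 other NRF2 target enzymes tested, 10 were called higher and 2 lower, against 19.4% and 19.7% of all genes. Those 20 belong to the wider list below. NQO1, a quinone reductase, had 140 and 163 counts with vehicle and 117 and 148 with AICAR, and its interval of -0.389 to 0.284 was the widest among the enzymes tested. GCLC, the catalytic subunit of the ligase that limits glutathione synthesis, had 461 and 410 counts with vehicle and 381 and 364 with AICAR (log2 -0.08, from -0.296 to 0.127; edgeR adjusted p = 0.532). GCLM, its regulatory subunit, had 473 counts in both vehicle libraries and 432 and 459 with AICAR (log2 0.05, from -0.11 to 0.219; edgeR adjusted p = 0.615). The counts of NQO1, GCLC and GCLM given here are not scaled for depth. In CPM GCLM had 13.4 and 12.9 with vehicle and 13.5 and 13.7 with AICAR, and for NQO1 and GCLC the groups overlapped. None of these 3 was called under any other setting. Their counts were low beside the other enzymes, and a rise the size of that of FTL lay above the interval of each, while a fall of that size lay inside that of NQO1.

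Of the 4 tested genes of glutathione synthesis and reduction, GCLC and GCLM among them, 2 rose and none fell. The shares of all genes tested were 19.4% and 19.7%, and so few genes do not set this subgroup apart. GSS, which completes glutathione, had 56.2 and 53.4 CPM with vehicle and 60.9 and 66.2 CPM with AICAR, a 1.16-fold rise (log2 0.22 ± 0.0514, SE; edgeR adjusted p = 0.00616). GSR, which reduces oxidized glutathione, had 97.2 and 93.9 CPM with vehicle and 105.9 and 102 CPM with AICAR, a 1.09-fold rise (edgeR adjusted p = 0.0314). In both genes the AICAR libraries were the higher ones. GSS was called in 13 of 17 other settings (0.15 to 0.30; adjusted p 1.12e-04 to 0.211). GSR was called in 9 of 17 (0.05 to 0.22; adjusted p 0.00117 to 0.579), and lost its call without vehicle replicate 2 (0.09) or AICAR replicate 1 (0.10).

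Of the 5 peroxiredoxin genes tested, 3 rose and none fell, against 19.4% and 19.7% of all genes tested. PRDX1 (ENSG00000117450) had 1523 and 1573 CPM with vehicle and 1767 and 1789 CPM with AICAR, a 1.15-fold rise in the most abundant member (log2 0.20 ± 0.0384, SE; edgeR adjusted p = 0.00171). PRDX5, found in mitochondria and peroxisomes, had 52.7 and 54.7 CPM with vehicle and 63.8 and 62.4 CPM with AICAR, a 1.18-fold rise (edgeR adjusted p = 0.0015). PRDX6, which also acts on phospholipid hydroperoxides, had 179 and 184 CPM with vehicle and 205 and 210 CPM with AICAR, a 1.14-fold rise (edgeR adjusted p = 0.00191). For these 3 genes both AICAR libraries lay above both vehicle libraries. PRDX5 lost its call in the test on FPKM (0.17; adjusted p over 17 settings 3.25e-04 to 0.0652).

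PRDX3 and PRDX4 were not called. PRDX3, the mitochondrial enzyme, had 198 and 211 CPM with vehicle and 195 and 194 CPM with AICAR. Its log2 fold change of -0.07 had an interval from -0.164 to 0.0188 (edgeR adjusted p = 0.197), so a rise of the size seen in PRDX1 lay outside it. PRDX3 was called lower in 3 of 17 settings, without vehicle replicate 1 (-0.12), with total counts alone (-0.13) and when only genes averaging 10 CPM or more were tested (-0.11), and its adjusted p ranged from 0.017 to 0.712. PRDX4, the enzyme of the endoplasmic reticulum, had 77.8 and 81.4 CPM with vehicle and 84.9 and 86.8 CPM with AICAR (log2 0.11, from 0.0181 to 0.198; edgeR adjusted p = 0.0563). PRDX4 was called higher in 2 of 17 settings, without vehicle replicate 2 (0.13) and with upper-quartile factors (0.12), and its adjusted p ranged from 0.0387 to 0.847.

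All 5 genes for glutathione peroxidases, superoxide dismutases and catalase rose, against 19.4% of all genes tested. GPX4, the selenoenzyme that reduces lipid hydroperoxides in membranes, had 172 and 180 CPM with vehicle and 208 and 218 CPM with AICAR, a 1.21-fold rise (log2 0.28 ± 0.0418, SE; edgeR adjusted p = 3.55e-04). SOD1, the cytosolic copper and zinc dismutase, had 220 and 235 CPM with vehicle and 269 and 273 CPM with AICAR, a 1.19-fold rise (edgeR adjusted p = 6.68e-04). GPX1, the cytosolic glutathione peroxidase, had 176 and 186 CPM with vehicle and 209.6 and 213 CPM with AICAR, a 1.17-fold rise (edgeR adjusted p = 0.00126). In these 3 genes the groups were apart and the AICAR libraries closer to each other than to either vehicle library. CAT, the catalase of peroxisomes, had 149 and 145 CPM with vehicle and 166 and 164 CPM with AICAR, a 1.12-fold rise (edgeR adjusted p = 0.00456). SOD2, the mitochondrial manganese dismutase, had 148 and 152 CPM with vehicle and 166 and 167 CPM with AICAR, the smallest rise of the 5 at 1.11-fold (edgeR adjusted p = 0.00826). CAT was not called with total counts alone (0.11) or on FPKM (0.10), and SOD2 was called in 13 of 17 settings and not without AICAR replicate 2 (0.15; adjusted p over the settings 0.00283 to 0.191 for SOD2 and 1.94e-04 to 0.27 for CAT).

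Transcript length moved with these differences. Effective lengths could be computed for 29 of the tested members. The 15 that rose had a median of 1046 bases and the 4 that fell 2643 bases, beside 1947 bases for 9759 tested protein-coding genes. Among protein-coding genes under 1000 bases the median log2 fold change was 0.14 and 39.4% were called higher, beside 25.2% of all tested protein-coding genes with a length. Of the 9 members under 1000 bases, 7 were called higher. Of the 12 between 1000 and 2000 bases, 6 were called higher, beside 24.5% of protein-coding genes in that range.

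A smooth curve of log2 fold change on length gave the value typical of each member's length. The 15 rising members lay 0.15 to 0.30 above the curve, with a median of 0.19, and the 4 falling ones 0.31 to 0.66 below it. Their calls rest on the same fold changes and largely fixed these sides in advance. The smallest called rise was 0.12, for GSR, while the curve reached at most 0.09 at any member, for GPX4. GSS, at 0.30, and CAT, at 0.27, were among the rising members farthest above the curve, and their effective lengths were 1844 and 2197 bases. The 10 members not called lay between -0.05 and 0.15. With the curve removed from the counts, 16 members were called higher against 23.6% of all genes, and 4 lower against 16.6%. The share of all genes called was also larger in a test of better-read genes, for which the scaling was computed anew. Why it was larger was not tested. When the test was limited to 8225 genes averaging 10 CPM or more, 14 of 28 members were called higher against 25.3% of genes, and 6 lower against 28.0%.

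**Figure D4:**
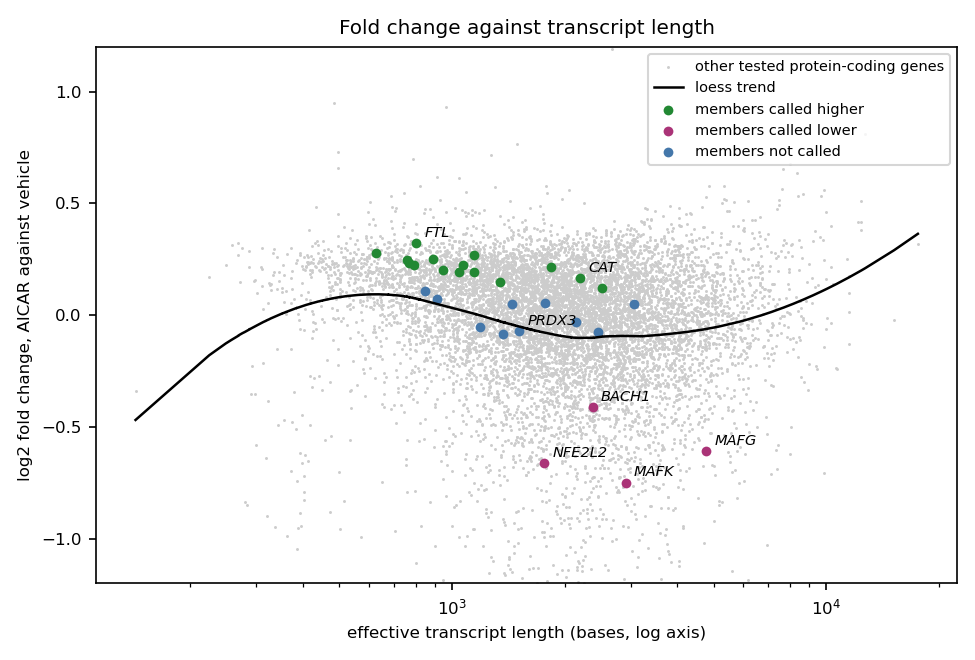
Log2 fold change (vertical axis) against effective transcript length in bases (log axis) for tested protein-coding genes, with the loess curve and the 29 members that have a length. The 15 members called higher lie above the curve and the 4 called lower below it, as their calls on the same fold changes largely fixed. The vertical range leaves out 120 genes.

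Of 15 members called higher, 8 had a promoter window and none of the 8 held the core TGACNNNGC printed above. Of 4 called lower, 3 had a window and none held it, beside 13.3% of all windows, so with so few genes the absence sets neither group apart. TXNRD1, KEAP1 and GCLM, which held it, had log2 fold changes of -0.07, -0.03 and 0.05 and were not called. MAFF, which also held it, was not called either. Its log2 fold change was -1.66, with an interval from -3.06 to -0.264, on 2 to 14 counts a library. Elements that lie farther from the start were not examined, so this says nothing of NRF2 binding.

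A wider list of 106 genes from the same pathways had 85 tested, of which 30 were called higher and 9 lower, against 19.4% and 19.7% of all genes tested. The median log2 fold change was 0.12. The number called higher was 19 without AICAR replicate 2, 14 with total counts alone, against 10.2% of all genes, and 7 on log2(FPKM + 1), against 4.24%. The 2 biliverdin reductase genes, which act on the product of heme oxygenase, rose. BLVRA had 8.95 and 9.24 CPM with vehicle and 11.5 and 11.7 CPM with AICAR, a 1.28-fold rise (edgeR adjusted p = 0.00623). BLVRB had 36.6 and 38.3 CPM with vehicle and 47.0 and 47.5 CPM with AICAR, a 1.26-fold rise (edgeR adjusted p = 2.91e-04). These rises had the size of that of FTL. DPP3, a peptidase that binds KEAP1, rose 1.25-fold, and TXNDC5, a disulfide isomerase of the endoplasmic reticulum, 1.24-fold. GSTM4 rose 1.25-fold, though glutathione transferases of the mu class are close in sequence and its count is uncertain. SQSTM1, the autophagy receptor p62 that sequesters KEAP1, rose 1.15-fold (edgeR adjusted p = 0.0158).

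Among genes of the wider list averaging 10 CPM or more, the 3 largest falls exceeded the largest rise. At lower levels OPLAH, an enzyme of the glutathione cycle, was called at log2 1.46 on 6 to 19 counts a library, and ABCC2, an efflux pump for glutathione conjugates, at -1.12 on 13 to 36 counts. These 2 genes were picked after their values were seen. PALB2, a DNA repair protein that also binds KEAP1, had 28.7 and 28.0 CPM with vehicle and 16.8 and 18.0 CPM with AICAR, a 1.63-fold fall (edgeR adjusted p = 7.88e-06). FBXL5, which targets an iron regulatory protein for degradation when iron is plentiful, had 39.5 and 41.2 CPM with vehicle and 25.9 and 27.8 CPM with AICAR, and fell by 0.59 on the log2 scale (edgeR adjusted p = 1.44e-05). As for BACH1, its FPKM fell less, from 22.6 and 21.5 with vehicle to 17.0 and 17.5 with AICAR. Its effective length was 1822 and 1919 bases with vehicle and 1506 and 1545 bases with AICAR. SLC25A28, which encodes mitoferrin-2, BACH2, the lymphoid relative of BACH1, and SLC25A37, which encodes mitoferrin-1, fell by 0.57, 0.26 and 0.21 on the log2 scale. SLC7A11, the cystine carrier that feeds glutathione synthesis, had 8.58 and 9.54 CPM with vehicle and 6.89 and 6.64 CPM with AICAR, a 1.34-fold fall (edgeR adjusted p = 0.00715). Among the other iron genes 4 of 21 rose and 4 fell, shares near those of all genes tested (19.4% and 19.7%). Among the other glutathione genes 8 of 20 rose and none fell. Among the other NRF2 target enzymes 10 of 20 rose and 2 fell. Differences between the lists were not tested. TFRC, the transferrin receptor, had 599 and 604 CPM with vehicle and 641 and 632 CPM with AICAR (log2 0.08, from 6.08e-04 to 0.164) and did not pass (edgeR adjusted p = 0.104). In FPKM it rose more, from 165 and 162 with vehicle to 191 and 186 with AICAR. Its effective length was 3772 and 3732 bases with vehicle and 3317 and 3296 bases with AICAR.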

How the data were processed

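Total RNA was sequenced as stranded, single-end libraries, per the labels' protocols. Per the submitters' processing notes the tools were RSEM 1.2.31, STAR 2.5.3a, Trimmomatic 0.32 and DESeq2, with the hg19 build. The gene annotation is not stated. The authors deposited expected counts (not normalized), FPKM (scaled by length and depth) and their own comparison as log2 fold changes with q-values. In the authors' deposited table the q-value was under 0.05 for 13 members higher and 4 lower, among them 17 of the 19 members called here, with the same sign.

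Expected counts were rounded, filtered with filterByExpr (minimum count 10, minimum total 15), scaled by TMM and tested two-sided with edgeR 4.0.16 in R 4.3.3, Benjamini-Hochberg adjusted over all genes tested. SE and 95% intervals come from that fit. The procedure was also run on simulated data with fewer genes changed and with folds larger than the members' rises. That run does not show how often rises this small are found. Members, lists and named genes (every member; of the wider list the 5 largest called rises and falls at 10 CPM or more, plus 4 by name, of which 1 is not reported here) were chosen with earlier results of these data known. Alternatives used limma 3.58.1, DESeq2 1.42.0, a loess curve (span 0.5) on length, other scalings and filters, and each library left out. Libraries of 1 group varied beyond counting noise (chi-square per gene 8.42 for vehicle and 2.93 for AICAR). These values used library totals without TMM factors, so they include differences that TMM scaling removes. Figures were drawn with matplotlib 3.10.9.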

Additional observations from a re-analysis of the deposited data

How the results depend on the processing

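No member called here changed sign under 18 other settings, and 11 of the 19 calls (8 higher, 3 lower) held in all of them. The number of members called higher was 8 on log2(FPKM + 1) and within 1.5 times of 15 elsewhere. Over all genes, 1390 were called higher with total counts alone, 541 higher and 1167 lower on FPKM, 1727 higher at an adjusted p under 0.01, and 1507 higher and 1650 lower with the effective length per library, a setting added after the values were seen. In the wider list the numbers called higher were 14 with total counts alone, 19 with no low-count filter, 17 with DESeq2, 7 on FPKM, 16 at 0.01 and 14 with the effective length per library. Those called lower were 4 with DESeq2, 3 on FPKM, 5 at 0.01 and 5 with the effective length. The cause was not tested, beyond the stricter threshold's own construction. Leaving out each library in turn gave 13 to 15 members higher and 4 to 5 lower, 19 to 31 and 6 to 10 in the wider list, and 2033 to 2616 and 2335 to 2643 over all genes. The replicate block gave 15 members higher and 4 lower, as without it, and 2708 and 2721 over all genes. The deviations of same-numbered libraries correlated at -0.0166 over 8228 genes, so the numbers were not taken as pairs. Counts under about 20 per library, as in MAFF, HMOX1 and PRDX2, limit what could be tested.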
